A study of Mus musculus with 2 samples.

Results

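The 39 genes described here encode the machinery that copies DNA in S phase. They were taken by symbol, and each of the 39 symbols matched 1 row among the 27998 genes of the count matrices. The matrices come from single-cell RNA sequencing of epidermal cells from the dorsal skin of male C57BL/6J mice at postnatal day 0. Both animals, called KO mouse 1 and KO mouse 2, lack Chrm3 (knockout, KO), which encodes a muscarinic acetylcholine receptor, and each gave 1 library, so n is 2 mice. No wild-type cells entered the comparisons, which are all between cells of KO epidermis, and the effect of the genotype was not tested. Each transcript is counted once by its unique molecular identifier (UMI). KO mouse 1 had 10816 barcodes and 109756784 UMIs, and KO mouse 2 had 15867 barcodes and 166441732 UMIs. After the study's filter on cells, 7607 and 11881 cells were kept, with a median of 10480 and 10577 UMIs, and 34 of their barcodes occurred in both libraries. Chrm3 itself was counted at no more than 0.641 CPM (counts scaled to a common total) in any cell class of KO mouse 1 and no more than 0.512 CPM in any class of KO mouse 2. A UMI does not tell which part of the gene it came from.

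DNA is licensed for replication when Cdc6 and Cdt1 load the ring of Mcm2 to Mcm7 onto origins, and the ring becomes an active helicase when Cdc45 and the GINS complex join it. Primase and the DNA polymerases then copy both strands around the sliding clamp Pcna, which the Rfc complex loads, while replication protein A covers single-stranded DNA, Fen1 and Lig1 join the lagging-strand fragments, and separate enzymes supply nucleotides and histones. Many of these genes are switched on by E2F transcription factors late in G1. In skin, cells divide in the basal layer of the interfollicular epidermis (IFE) and in the growing hair follicle, and keratinocytes (KCs) leave the cycle when they move up and differentiate.

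Because E2F sites are a known feature of such promoters, the 250 bases before each start in a RefSeq table were searched for short E2F letters (TTTCCCGC, TTTCGCGC, TTTGCCGC or TTTGGCGC on either strand, overlaps counted) in GRCm38.p6. Of the 39 genes, 34 had an entry, and a gene with several starts counted as a match if any had one. A match was found in 7 of them (20.6%), namely Cdc6, Mcm5, Mcm6, Mcm7, Pola1, Rfc3 and Uhrf1, against 583 of 27025 genes (2.16%). The CCAAT box was present in 20 of the 34 (58.8%, against 37.5% of all genes), and the letters of the cell cycle homology region (TTTGAA or TTCGAA) in 6 (17.6%, against 19.6%). A match is a string of letters and not a measured site. Shown here are the 3 promoters with a match whose genes had the greatest S range change in basal IFE cells (below, the log2 fold change was 3.72 for Cdc6 and 2.91 for Uhrf1), and that of Rrm2, which changed by 4.2 and holds no match. They lie at chr11:98907901-98908150 (Cdc6), chr17:56304063-56304312 (Uhrf1), chr8:75109259-75109508 (Mcm5) and chr12:24708004-24708253 (Rrm2), all on the plus strand. Capitals mark the E2F letters, which begin 138 bases before the start in Cdc6, 185 in Uhrf1, and 153 and 149 in Mcm5, where the matches overlap. The GENCODE M21 genes of Cdc6 (from 98907801) and Uhrf1 (from 56303321) begin before these stretches, which lie inside them, and Uhrf1 has another start in the table (56303087 to 56303386) with no match.
Cdc6: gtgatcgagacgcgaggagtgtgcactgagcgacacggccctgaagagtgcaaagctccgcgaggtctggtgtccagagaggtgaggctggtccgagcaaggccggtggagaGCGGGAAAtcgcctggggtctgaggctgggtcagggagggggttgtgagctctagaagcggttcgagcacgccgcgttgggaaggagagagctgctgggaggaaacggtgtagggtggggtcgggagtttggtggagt
Uhrf1: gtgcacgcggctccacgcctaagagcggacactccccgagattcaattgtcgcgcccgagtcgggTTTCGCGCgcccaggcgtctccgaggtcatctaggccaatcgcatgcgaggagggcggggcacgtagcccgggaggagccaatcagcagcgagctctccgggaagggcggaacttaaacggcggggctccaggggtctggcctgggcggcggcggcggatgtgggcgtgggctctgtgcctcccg
Mcm5: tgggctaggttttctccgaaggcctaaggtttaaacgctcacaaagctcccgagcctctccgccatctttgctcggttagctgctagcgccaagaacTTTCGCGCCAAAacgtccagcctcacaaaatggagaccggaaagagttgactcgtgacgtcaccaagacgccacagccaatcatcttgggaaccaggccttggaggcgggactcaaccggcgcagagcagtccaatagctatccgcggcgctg
Rrm2: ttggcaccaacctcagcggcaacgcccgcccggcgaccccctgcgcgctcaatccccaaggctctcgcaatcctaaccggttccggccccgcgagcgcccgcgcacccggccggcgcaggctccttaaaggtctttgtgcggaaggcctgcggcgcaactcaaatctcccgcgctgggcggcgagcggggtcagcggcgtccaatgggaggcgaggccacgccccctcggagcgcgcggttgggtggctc

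Cells were clustered without the 39 genes and without 63 other replication genes, so that none of these could define a cluster, and clusters were named from fixed markers, several of which the study had described on these samples. This gave 15 named classes with at least 20 cells in each mouse. Unnamed clusters held 1263 and 2049 cells of KO mouse 1 and KO mouse 2, and unnamed dividing clusters 341 and 496. These cells entered no comparison. The summed level of 12 mitotic markers (Mki67 and Top2a among them) was 4935 and 4733 CPM in the basal proliferating-like class of KO mouse 1 and KO mouse 2, and at most 133 CPM in the basal 1-like and basal 2-like classes. The basal aberrant-like class, a basal state that the study describes by Ccnd1 and Nasp among other genes (Nasp is 1 of the 39 and was not used as a marker here), had 7535 and 7422 CPM of its 12 markers, and the upper follicle-like class had more of these same genes (10215 and 8233 CPM). The transition-like list was also higher in another class, at 79876 and 85144 CPM in differentiated-like against 40075 and 40435 in transition-like KCs. These names therefore rest on lists that are not particular to their classes.

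The summed level of the 39 genes, given as CPM of all UMIs in a class, differed widely between classes. It was 4100 ± 123 (SD, n = 2 mice, here and for the other means) in hair follicle-like dividing cells, 3416 ± 13.4 in basal aberrant-like KCs, 3381 ± 163 in the other hair follicle-like cells and 3315 ± 90.1 in basal proliferating-like KCs. Between the mice, hair follicle-like cells (3266 and 3496) spanned both basal aberrant-like samples and overlapped basal proliferating-like KCs (3251 and 3379), so that these neighbours did not differ beyond their spread. T cell-like cells had 3173 in KO mouse 1 and 2739 in KO mouse 2, melanocyte-like cells 2288 and 2234, and terminally differentiated-like KCs 2405 and 1869. Basal 1-like KCs had 1522 and 1861 and basal 2-like KCs 1005 and 1084, so that both mice were higher in basal 1-like. The lowest levels were those of transition-like KCs (658 and 771) and differentiated-like KCs (491 and 559), with Langerhans cell-like (761 and 911), sebaceous-like (800 and 979) and dermal-like cells (770 and 1159) between them and the basal classes by their means. Without called doublets the mean of Langerhans cell-like cells was 589 and that of dermal-like cells 731, against 715 in transition-like KCs, so that the order among these classes turned. The sums lack the TMM scaling of the single-gene levels below, and the order of these low classes may also depend on that scale. Outside the named classes, unnamed dividing cells (341 and 496 cells) had 1708 and 1711 CPM, level with basal 1-like KCs. Hair follicle-like dividing cells thus held 0.41% of their UMIs in the 39 genes and differentiated-like KCs 0.0525%. A class sum cannot tell more expressing cells from more transcripts per cell. With every cell thinned to 3000 UMIs, the median cell held 12 UMIs of the 39 genes in hair follicle-like dividing cells of both mice, 8 and 9 in basal aberrant-like, 3 and 4 in basal 1-like, 3 and 3 in basal 2-like and 1 and 1 in differentiated-like KCs, where 28% and 23.7% of the cells had none. Free RNA adds UMIs to droplets of every class, and its part in the low levels was not tested.

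**Figure D1:**
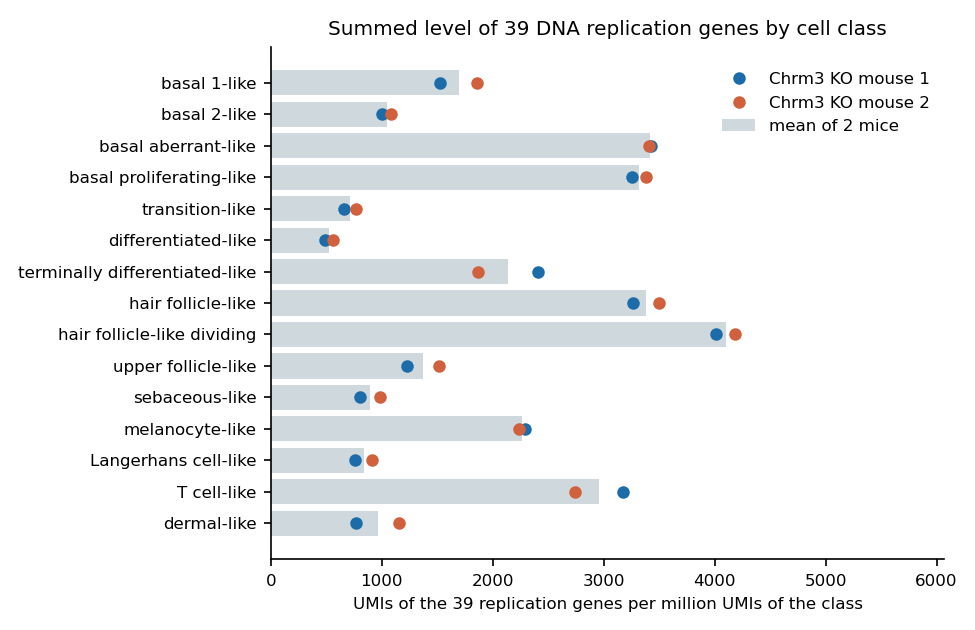
Summed level of the 39 DNA replication genes in 15 cell classes, in CPM of all UMIs of the class. Bars give the mean of 2 KO mice and points each mouse, and the level runs from 525 in differentiated-like KCs to 4100 in hair follicle-like dividing cells.

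Single genes did not all peak in the same class. By mean CPM after TMM normalization (the scale of all single-gene levels here), 18 of the 39 were highest in hair follicle-like dividing cells, 8 in basal aberrant-like KCs, 5 in basal proliferating-like KCs, 5 in T cell-like cells and 3 in hair follicle-like cells. Those highest in basal aberrant-like KCs were Mcm3, Mcm4, Mcm5, Mcm6, the loader Cdt1, the GINS subunit Gins1, the clamp loader subunit Rfc3 and the histone chaperone subunit Chaf1a. Of the 39, 16 were lowest in differentiated-like KCs and 14 in dermal-like cells. These places rest on means without their spread, and some were close. Mcm7 was at 114 and 105 CPM in T cell-like cells and 108 and 108 in hair follicle-like dividing cells. The dermal-like sums were small (40 and 69 cells, 209056 and 389074 UMIs), so many of their levels rest on few UMIs.

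**Figure D2:**
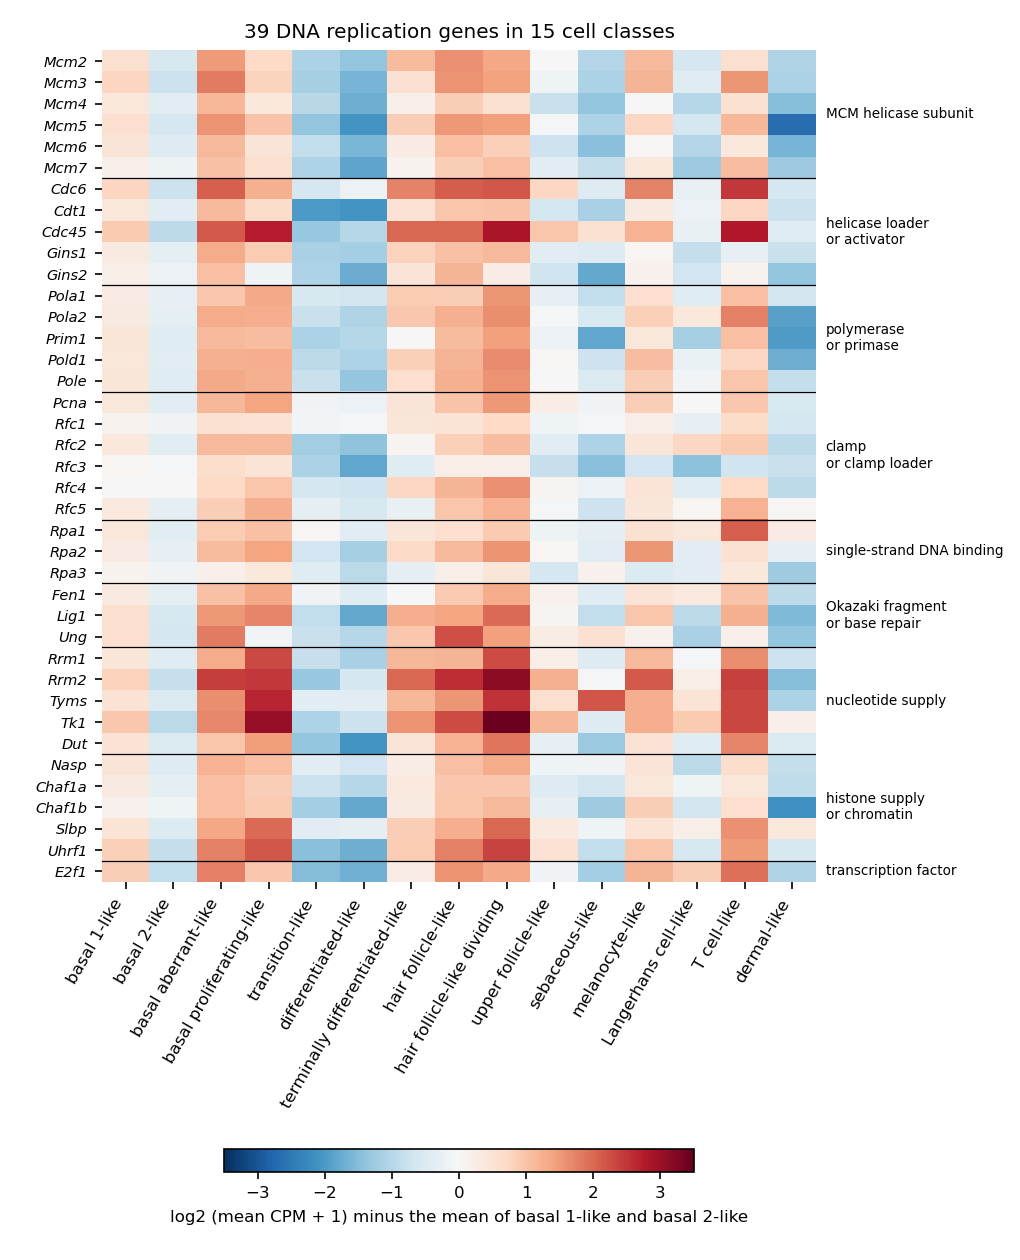
Levels of each of the 39 genes (rows, grouped by role) in 15 cell classes (columns), as log2 of the mean CPM of 2 mice plus 1, minus the mean of the basal 1-like and basal 2-like classes. Red is higher and blue lower than that mean, and the transition-like and differentiated-like columns are blue for nearly all genes.

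Basal proliferating-like KCs were compared with basal 1-like and basal 2-like KCs to ask how the genes differ between mitotic and other basal cells. Of the 39 genes, 36 were upregulated and 0 downregulated at an adjusted p under 0.05, where 15.8% of the 13780 genes tested were upregulated and 12.1% downregulated. The median log2 fold change was 1.10, against 0.00 over all genes. Nucleotide supply moved most, with all 5 genes higher and a median of 2.54. The 6 MCM subunits moved least among the larger groups (all higher, median 0.62). The reference averages basal 1-like and basal 2-like KCs, which differed from each other (below). Against basal 1-like KCs alone, the samples of Mcm2, Mcm3, Mcm4 and Mcm6 overlapped, and those of Mcm5 and Mcm7 did not. Mcm3 was at 57.8 and 67.8 CPM, against 55.3 and 67.2 in basal 1-like and 19.2 and 22.4 in basal 2-like KCs. Tk1, the thymidine kinase of nucleotide salvage, was at 139 and 140 CPM in basal proliferating-like KCs of KO mouse 1 and KO mouse 2, at 28.2 and 34.5 in basal 1-like and at 6.41 and 9.22 in basal 2-like KCs. Both dividing samples lay above all 4 others, and the log2 fold change was 3.12 (SE 0.15, edgeR adjusted p = 6.08e-16). Cdc45 was at 27.8 and 26.3 CPM, against 6.41 and 7.33 in basal 1-like and 0.712 and 1.66 in basal 2-like KCs, with no overlap (3.14, SE 0.19, adjusted p = 2.36e-13). Tyms, which makes thymidylate, changed by 2.70 (SE 0.14, adjusted p = 9.42e-15), Rrm2 and Rrm1, the subunits of ribonucleotide reductase, by 2.54 (SE 0.20, adjusted p = 4.09e-11) and 2.34 (SE 0.11, adjusted p = 6.91e-16). At a clustering resolution of 1.2 the change of Rrm2 was 0.45 and did not pass. The genes that did not pass were Gins2, Rpa3 (the smallest subunit of replication protein A) and Ung, the uracil-DNA glycosylase. Ung was at 27.1 and 35.0 CPM in basal proliferating-like KCs, between basal 1-like (46.4 and 54.5) and basal 2-like (20.4 and 23.4), with a log2 fold change of -0.09.

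Basal aberrant-like KCs had 38 of the 39 genes upregulated and 0 downregulated against the same basal 1-like and basal 2-like KCs (background 10.1% upregulated and 6.77% downregulated), with a median of 1.18 against 0.00 over all genes. Their mitotic markers summed to 250 and 225 CPM, far under the 4935 and 4733 of basal proliferating-like KCs. By role, the medians were 1.62 for nucleotide supply, 1.53 for Okazaki fragments or base repair, 1.33 for the MCM subunits, 1.32 for polymerases and primase and 1.3 for loaders and activators. All 6 MCM subunits were higher, and Mcm3 was at 125 and 133 CPM against 55.3 and 67.2 in basal 1-like and 19.2 and 22.4 in basal 2-like KCs. Cdc6, the MCM loader, was at 9.66 and 14.1 CPM against 2.56 and 5.73 and 0.712 and 0.896, so that its levels did not overlap (2.66, SE 0.30, edgeR adjusted p = 1.69e-07). Ung was at 117 and 124 CPM, more than either mouse of any other basal class (1.85, SE 0.15, adjusted p = 4.78e-10). E2f1, an activating E2F factor, was at 41.5 and 39.7 CPM, against 18.8 and 23.5 in basal 1-like and 4.75 and 6.66 in basal 2-like KCs (1.84, SE 0.15, adjusted p = 4.76e-10). Cdc45 changed by 2.52 (SE 0.21, adjusted p = 9.92e-10) and Rrm2 by 2.47 (SE 0.20, adjusted p = 5.83e-10). Only Rpa3 did not pass, at 28.5 and 21.5 CPM against 24.6 and 23.3 in basal 1-like KCs. With cells limited to under 5% mitochondrial UMIs, 24 genes passed, a count given without the calls over all genes. This comparison and the previous one share their basal 1-like and basal 2-like sums.

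Between basal 2-like and basal 1-like KCs, 29 of the 39 genes were lower in basal 2-like and 0 higher (background 4.97% lower and 2.96% higher), with a median log2 fold change of -0.87 against 0.00 over all genes. Tk1 (6.41 and 9.22 CPM against 28.2 and 34.5) changed by -1.96 (SE 0.22, edgeR adjusted p = 2.50e-06) and E2f1 by -1.85 (SE 0.21, adjusted p = 2.36e-06), and the levels of both did not overlap. Cdc6 changed by -2.39 (SE 0.50, adjusted p = 0.00222), Cdc45 by -2.38 (SE 0.34, adjusted p = 3.32e-05) and Rrm2 by -1.76 (SE 0.30, adjusted p = 2.90e-04). In basal 2-like KCs Cdc6 (0.712 and 0.896 CPM) and Cdc45 (0.712 and 1.66) were very low. The clamp loader was the group with the fewest changes: Rfc1, Rfc3 and Rfc4 did not pass, and Rfc3 was at 124 and 121 CPM in basal 2-like and at 124 and 143 in basal 1-like KCs. With a mouse left out, here and below, its sums were dropped from the classes or ranges compared, the other sums of the fit gave the spread, and the lone sums were assumed to vary like them. Without KO mouse 2 the number that passed was 12 (Cdc6 then -1.81 and Rrm2 -1.70, neither passing), while the calls over all genes went from 408 higher and 685 lower to 93 and 148. At resolution 1.2 it was 6, and the changes were smaller. They were -0.09 for Rrm2, -0.37 for Cdc6, -0.69 for E2f1 and -0.78 for Cdc45, none of them passing, while Tk1 kept its call. Without integration of the mice the number that passed was 19. With under 5% mitochondrial UMIs it was 0 by edgeR, where 20 of the 39 passed at an unadjusted p under 0.05 and 3 of all 11679 genes were higher and 9 lower. The changes in that setting were -1.87 for E2f1, -1.79 for Cdc6, -1.37 for Rrm2, -1.33 for Cdc45 and -1.27 for Tk1. The share of S range cells also differed between these classes (below), in the same direction.

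Leaving the basal layer went with lower levels. Transition-like KCs, which carry markers of both basal and differentiated KCs, had 29 genes downregulated and 0 upregulated against basal 1-like and basal 2-like KCs (background 11.4% and 11.7%), with a median of -0.96. In differentiated-like KCs 33 were downregulated and 0 upregulated (background 25.6% and 26.2%), with a median of -1.25 against 0.00 over all genes. All 6 MCM subunits and all 5 polymerase or primase genes were lower at both stages. Cdt1, which loads MCM with Cdc6, was at 3.04 and 5.24 CPM in transition-like and 3.29 and 4.43 in differentiated-like KCs, against 24.6 and 28.7 in basal 1-like and 13.5 and 16.0 in basal 2-like KCs. No later sample reached a basal one, and the changes were -2.20 (SE 0.25, edgeR adjusted p = 1.16e-07) and -2.36 (SE 0.24, adjusted p = 2.46e-09). E2f1 was at 3.04 and 3.42 CPM in transition-like and 2.26 and 3.32 in differentiated-like KCs, under the 4.75 to 23.5 CPM of the basal 1-like and basal 2-like samples (-1.78, SE 0.26, adjusted p = 9.89e-06, and -1.99, SE 0.25, adjusted p = 2.03e-07). In transition-like KCs Cdc45 changed by -2.29 (SE 0.51, adjusted p = 0.00136), Rrm2 by -1.51 (SE 0.37, adjusted p = 0.00316) and Uhrf1, which binds hemimethylated DNA behind the fork, by -1.51 (SE 0.26, adjusted p = 8.33e-05). Without KO mouse 2, Cdc45 (-1.21) and Rrm2 (-1.58) did not pass. At resolution 1.2 the change of Rrm2 was 0.04 and that of Cdc45 -0.44, and neither passed. With under 5% mitochondrial UMIs 12 genes passed in transition-like KCs, a count given without the calls over all genes. E2f1 (-0.78), Uhrf1 (-0.98), Cdc45 (-0.64) and Rrm2 (-0.48) did not pass in that setting, while Cdt1 kept its call. Cdc45 was at 0.913 and 0.403 CPM in transition-like KCs, in sums of 3637140 and 5645192 UMIs, so it rested on a few UMIs.

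In differentiated-like KCs the greatest other changes were those of Mcm5 (6.79 and 9.79 CPM against 45.5 and 71.6 in basal 1-like and 23.7 and 26.2 in basal 2-like KCs, a change of -2.21, SE 0.22, edgeR adjusted p = 2.15e-09), Dut, which keeps uracil out of the nucleotide pool (-2.15, SE 0.19, adjusted p = 3.18e-10), and Mcm7 (-1.93, SE 0.19, adjusted p = 1.47e-09). The 6 genes that did not pass were Cdc6, Pcna, Rfc1, Rpa1, Tyms and Slbp, the last a protein that binds histone mRNA. Pcna, the clamp, was at 33.7 and 39.3 CPM in differentiated-like KCs. This was above both basal 2-like samples (30.8 and 33.3) and under both basal 1-like samples (52.3 and 59.0). Rfc1, whose product also serves outside S phase, was at 59.5 and 61.1 CPM against 56.0 to 69.8 in the 4 basal samples, so that the groups overlapped.

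Terminally differentiated-like KCs went against this course. Named by Lor, which was at 15811 and 12133 CPM, and by other cornified envelope genes, this small class (47 and 65 cells) had 34 genes upregulated and 0 downregulated against differentiated-like KCs (background 13.6% and 13.3%), with a median of 1.93. Lig1, the ligase of lagging-strand fragments, was at 98.3 and 64.9 CPM against 8.44 and 9.23 (3.12, SE 0.30, edgeR adjusted p = 7.67e-09) and Mcm5 at 64.6 and 76.5 against 6.79 and 9.79 (3.11, SE 0.33, adjusted p = 4.94e-08), without overlap. Cdc45 changed by 3.72 (SE 0.56, adjusted p = 1.07e-05), Cdt1 by 2.87 (SE 0.42, adjusted p = 5.64e-06) and Uhrf1 by 2.65 (SE 0.43, adjusted p = 2.31e-05). Several marker lists of other cells moved with them, but not all. The 12 mitotic markers summed to 1328 and 1261 CPM against 76.3 and 115, the 16 hair follicle markers to 1165 and 993 against 283 and 308, the 8 melanocyte markers to 211 and 289 against 21.6 and 106, and the 10 basal 2 markers to 4148 and 4357 against 1936 and 1766, and none of these markers was at 0 in both mice. Krt5 of basal KCs was at 2109 and 2908 CPM against 718 and 1080. The basal 1 list was about level (2763 and 3191 CPM against 2996 and 2987). The upper follicle list (809 and 1160 against 2139 and 1444) and the sebaceous list (140 and 108 against 298 and 260) were lower. The part of other cells in the result was not tested.

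The growing follicle was the other main site of these genes. Hair follicle-like cells outside the dividing class had 37 genes upregulated and 0 downregulated against basal 1-like and basal 2-like KCs (background 24.6% and 19.3%), with a median of 1.2 against 0.03 over all genes. Ung was at 151 and 173 CPM, its highest level in any class, against 46.4 and 54.5 in basal 1-like and 20.4 and 23.4 in basal 2-like KCs (2.27, SE 0.14, edgeR adjusted p = 3.29e-13). Cdc6 changed by 2.68 (SE 0.26, adjusted p = 2.87e-09), Rrm2 by 2.63 (SE 0.18, adjusted p = 4.48e-12), Cdc45 by 2.38 (SE 0.19, adjusted p = 4.56e-11) and Tk1 by 2.33 (SE 0.14, adjusted p = 3.79e-13). Rfc3 (143 and 159 CPM against 121 to 143 in the 4 basal samples) and Rpa3 (28.3 and 22.5 against 14.7 to 25.4) did not pass.

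Hair follicle-like dividing cells and basal proliferating-like KCs are the mitotic classes of the 2 lineages, and their sums were closer. Of the 39 genes 15 were higher in the follicle and 0 lower (background 12.7% and 13.8%), with a median of 0.26 against 0.00 over all genes. With the mouse as a block, 24 were higher and 1 lower, where 17.1% and 17.4% of all genes were. Ung was at 82.6 and 101 CPM in the follicle and at 27.1 and 35.0 in the IFE (1.54, SE 0.17, edgeR adjusted p = 8.76e-08), and Rfc4 of the clamp loader at 137 and 140 against 87.3 and 89.6 (0.65, SE 0.12, adjusted p = 1.52e-04), without overlap. Cdc6 changed by 1.01 (SE 0.25, adjusted p = 0.00274), Mcm2 by 0.66 (SE 0.13, adjusted p = 2.67e-04) and Rrm2 by 0.65 (SE 0.18, adjusted p = 0.0078). All 5 genes for histones and chromatin missed the threshold, with changes from 0.01 to 0.26. With 1 sum per arm the count was 6 without KO mouse 1 and 3 without KO mouse 2, where Cdc6 (0.97) and Mcm2 (0.56) did not pass. Rrm2 did not pass without either mouse, with changes about as large (0.69 without KO mouse 1 and 0.64 without KO mouse 2). At resolution 1.2 the count was 36, and with all cell cycle genes left out of the clustering 32. Calls over all genes in these settings are not given here, so neither count can be set against a background. The follicle class also had more cells in the S range (37.8% against 22.3%) and fewer in the G2/M range (58.7% against 77.7%, below). The part of this difference in the result was not tested.

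Melanocyte-like cells had 31 genes upregulated and 2 downregulated against basal 1-like and basal 2-like KCs (background 30.6% and 24.9%), with a median of 0.57 against 0.04 over all genes. Rpa2, the middle subunit of replication protein A, was at 140 and 129 CPM, above the 34.7 to 60.9 of the 4 basal samples (1.57, SE 0.10, edgeR adjusted p = 1.18e-13). Rpa3 of the same complex was lower (17.7 and 13.1 CPM against 14.7 to 25.4, a change of -0.51, SE 0.21, adjusted p = 0.0389), but the samples overlapped and the change did not pass without either mouse (-0.50 and -0.53). Rfc3 was also lower, at 79.0 and 80.8 CPM against 121 to 143 (-0.68, SE 0.12, adjusted p = 1.77e-05), while the other 5 clamp or clamp loader genes were higher. Cdc6 changed by 2.23 (SE 0.31, adjusted p = 5.41e-07), Rrm2 by 2.19 (SE 0.20, adjusted p = 3.55e-10), Cdc45 by 1.5 (SE 0.23, adjusted p = 3.73e-06) and Tk1 by 1.29 (SE 0.16, adjusted p = 1.38e-07). Without KO mouse 1, 21 genes passed in all.

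The 2 immune classes differed in direction. T cell-like cells (52 and 38 cells, 558785 and 413290 UMIs) had 28 genes upregulated and 1 downregulated (background 17.9% and 17.8%), with a median of 1.04 against -0.14 over all genes. The median of all genes moved to -0.002 with DESeq2 size factors, by which 32 were upregulated and 1 downregulated (2822 and 2018 of all genes, against 2472 and 2446 by TMM). Tyms was at 117 and 105 CPM against 11.4 to 35.7 in the 4 basal samples (2.37, SE 0.23, edgeR adjusted p = 3.84e-09) and Rpa1, the large subunit of replication protein A, at 86.8 and 56.2 against 11.1 to 23.6, both without overlap. Cdc45 changed by 3.13 (SE 0.38, adjusted p = 1.39e-07), Cdc6 by 3.02 (SE 0.58, adjusted p = 1.18e-04), Rrm2 by 2.47 (SE 0.36, adjusted p = 3.29e-06) and Tk1 by 2.44 (SE 0.26, adjusted p = 1.11e-08). Rfc3 changed by -0.73 (SE 0.19, adjusted p = 0.00271) and did not pass without KO mouse 1 (-0.54), when 14 genes passed in all. The mitotic markers summed to 2471 and 1414 CPM in this class.

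Langerhans cell-like cells, the antigen-presenting cells of the epidermis, had 14 genes downregulated and 3 upregulated (background 23.8% and 27.6%), with a median of -0.35 against -0.01 over all genes. Rfc3 was at 45.8 and 48.4 CPM against 121 to 143 in the 4 basal samples (-1.44, SE 0.16, edgeR adjusted p = 8.81e-09), and Mcm7 at 11.3 and 30.4 against 44.4 to 65.6 (-1.26, SE 0.23, adjusted p = 4.27e-05), without overlap. Prim1, the catalytic primase subunit, changed by -1.18 (SE 0.24, adjusted p = 1.23e-04), Ung by -1.16 (SE 0.28, adjusted p = 9.92e-04) and Mcm6 by -1.0 (SE 0.16, adjusted p = 9.35e-06). The 3 higher genes were Tk1 (0.95, SE 0.23, adjusted p = 0.00116), E2f1 (0.91, SE 0.23, adjusted p = 0.00118) and Rfc2 of the clamp loader (0.72, SE 0.15, adjusted p = 2.70e-04). Of this class 10.4% of the cells were called doublets. Without them 23 genes were downregulated and 1 upregulated, the median was -0.97, and Tk1 (0.07) and E2f1 (0.51) did not pass. Calls over all genes without doublets are not given beside these counts. E2f1 also did not pass without KO mouse 2 (0.86). Under the 5% mitochondrial limit 8 genes passed, a count given without the calls over all genes.

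Classes that entered no comparison are given by level. Sebaceous-like cells were low for most of the genes but held 109 and 95.5 CPM of Tyms, against 11.4 to 35.7 in the basal 1-like and basal 2-like samples and 120 and 132 in hair follicle-like dividing cells. Upper follicle-like cells had a summed level of 1225 and 1511 CPM, under the 1522 and 1861 of basal 1-like KCs. Most of the 39 genes were lower there by their means, such as Mcm4 (28.6 and 33.9 CPM against 72.6 and 72.4). Among the exceptions, Tk1 was at 35.0 and 39.2 CPM and Rrm2 at 22.8 and 30.4, near or above basal 1-like KCs (28.2 and 34.5, and 13.2 and 25.7).

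Each cell was also placed in an S range, a G2/M range or neither by Seurat's cell cycle scores. The S score used 22 genes, none of them among the 39, and the G2/M score used 54. A range is a cut through a score and not a cell type, and 278 of 1563 and 543 of 2879 basal IFE cells lay near a cut. In basal aberrant-like KCs 55.4% ± 1.2 (SD, n = 2) of the cells were in the S range and 0.536% in the G2/M range, and in hair follicle-like cells 52.2% ± 4.91 and 1.18%. Basal proliferating-like KCs had 22.3% ± 4.45 in the S range and 77.7% in the G2/M range, and hair follicle-like dividing cells 37.8% ± 3.85 and 58.7%. The S range share was 25.9% ± 6.8 in basal 1-like, 9.69% ± 0.524 in basal 2-like, 3.32% ± 0.899 in transition-like and 1.94% ± 0.581 in differentiated-like KCs. It was 32.1% in T cell-like, 20.4% in melanocyte-like and 4.83% in Langerhans cell-like cells. Terminally differentiated-like KCs had 22.9% in the S range and 23.8% in the G2/M range. Scores can depend on the depth of a cell, so each cell was also thinned to 3000 UMIs. For thinned cells the scoring also sorted genes by level into fewer bins, so the shares do not differ by depth alone. After thinning, the S range shares were 42.3% in basal aberrant-like, 40.9% in hair follicle-like, 20% in basal 1-like, 7.63% in basal 2-like and 24% in T cell-like cells. That of transition-like KCs rose to 5.82%. Basal proliferating-like KCs then had 20.4%, so that they and basal 1-like KCs exchanged places, with differences within the spread of the mice. Free RNA, which the scores also read, was not tested.

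**Figure D3:**
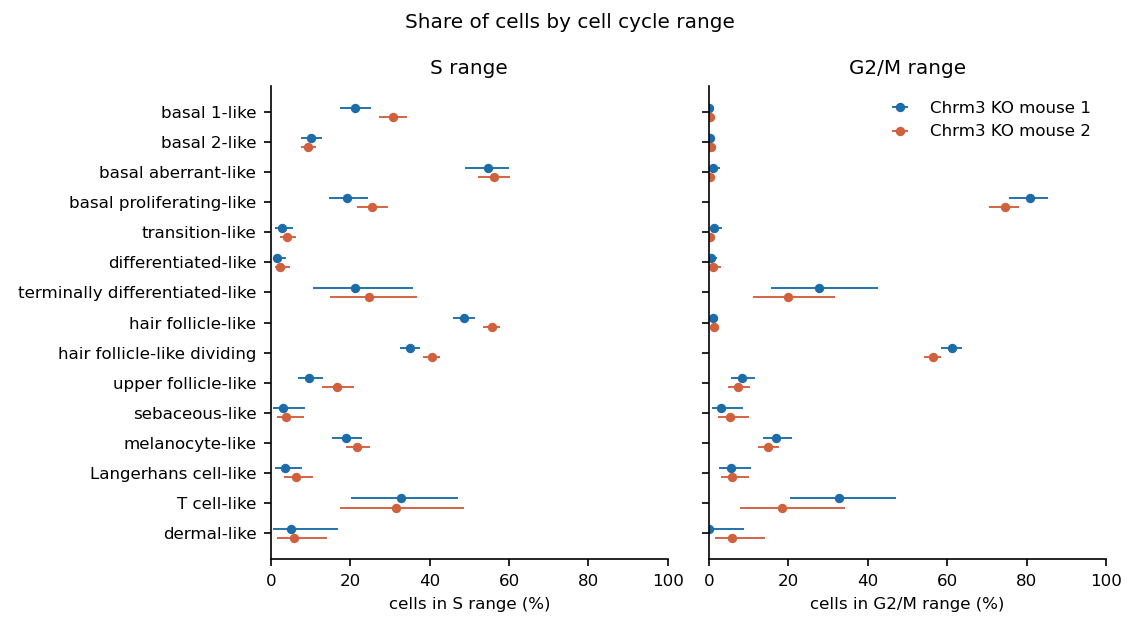
Share of cells in the S range (left) and the G2/M range (right) in 15 classes, in percent, for each KO mouse with its exact 95% binomial interval, which covers counting error only. Basal aberrant-like and hair follicle-like cells lie highest in the S range and the dividing classes highest in the G2/M range.

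The ranges were then compared within a lineage, in sums over basal IFE cells (the 4 basal classes), hair follicle cells (both classes) and melanocytes. The immune classes did not reach 20 cells in every range and mouse and were left out. The classes of a lineage were not evenly mixed over the ranges, and their part in the differences was not tested. The S range was chosen by genes that peak with replication, so the cells were sorted by genes of the same phase, and the values below describe how large the difference was for each gene. In basal IFE cells 38 of the 39 were higher in the S range than in neither range and 0 lower (background 9.44% of 12615 genes higher and 5.16% lower), with a median of 1.72 against -0.03 over all genes. In hair follicle cells all 39 were higher and 0 lower (12.8% and 7.36%, median 1.78), and in melanocytes 38 and 0 (4.81% and 3.27%, median 1.84). The same 38 were higher in all 3 lineages, and Rpa3 was the exception in basal IFE cells (34.3 and 26.7 CPM in the S range against 25.4 and 18.7) and melanocytes (20.8 and 17.8 against 16.1 and 11.8). In the follicle 1609 genes of all were higher and 928 lower by TMM, and 1378 and 1268 by DESeq2 size factors. S range cells were deeper than cells in neither range (a median of 11967.5 and 12224 UMIs against 9067 and 9097 in basal IFE cells), and with cells thinned to 3000 UMIs before scoring 38, 39 and 38 genes were higher in the 3 lineages.

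In basal IFE cells the greatest rises were those of Rrm2, Cdc45, Cdc6, Tk1 and Uhrf1. Rrm2 was at 95 and 111 CPM in the S range of KO mouse 1 and KO mouse 2 and at 3.29 and 7.19 in neither range (4.2, SE 0.19, edgeR adjusted p = 5.38e-11). Cdc45 was at 26.5 and 30.1 against 1.71 and 1.62 (4.10, SE 0.19, adjusted p = 6.60e-11), and Cdc6 at 13.6 and 18.6 against 0.732 and 1.55 (3.72, SE 0.28, adjusted p = 2.09e-08). In each case both S range samples were far above both others. Tk1 rose by 3.23 (SE 0.11, adjusted p = 4.84e-12) and Uhrf1 by 2.91 (SE 0.13, adjusted p = 4.45e-11). The smallest changes among the genes that passed were those of the clamp loader subunits Rfc3 and Rfc1 and of Gins2, at 0.85, 0.91 and 0.94. The 6 MCM subunits rose by 1.35 to 2.12.

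Hair follicle cells and melanocytes were led by largely the same genes. Rrm2 was at 156 and 171 CPM in the S range of the follicle and 13.9 and 12.1 in neither range (3.66, SE 0.17, edgeR adjusted p = 7.64e-11), Cdc45 rose by 3.64 (SE 0.17, adjusted p = 8.54e-11) and Cdc6 by 3.55 (SE 0.25, adjusted p = 1.02e-08), followed by Tyms (2.44, SE 0.10, adjusted p = 3.06e-11) and Slbp (2.43, SE 0.10, adjusted p = 3.10e-11). In melanocytes Cdc6 was at 31.6 and 26.9 CPM against 0.423 and 0.907 (5.26, SE 0.44, adjusted p = 2.85e-07), and Rrm2 rose by 4.37 (SE 0.24, adjusted p = 1.83e-09). Tk1 (3.53, SE 0.19, adjusted p = 1.56e-09), E2f1 (3.11, SE 0.19, adjusted p = 7.05e-09) and Uhrf1 (2.99, SE 0.17, adjusted p = 3.10e-09) followed. The neither range of melanocytes held 2307165 and 4419221 UMIs, so its Cdc6 level rested on a few UMIs. The size of the Cdc6 change in melanocytes is therefore uncertain.

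**Figure D4:**
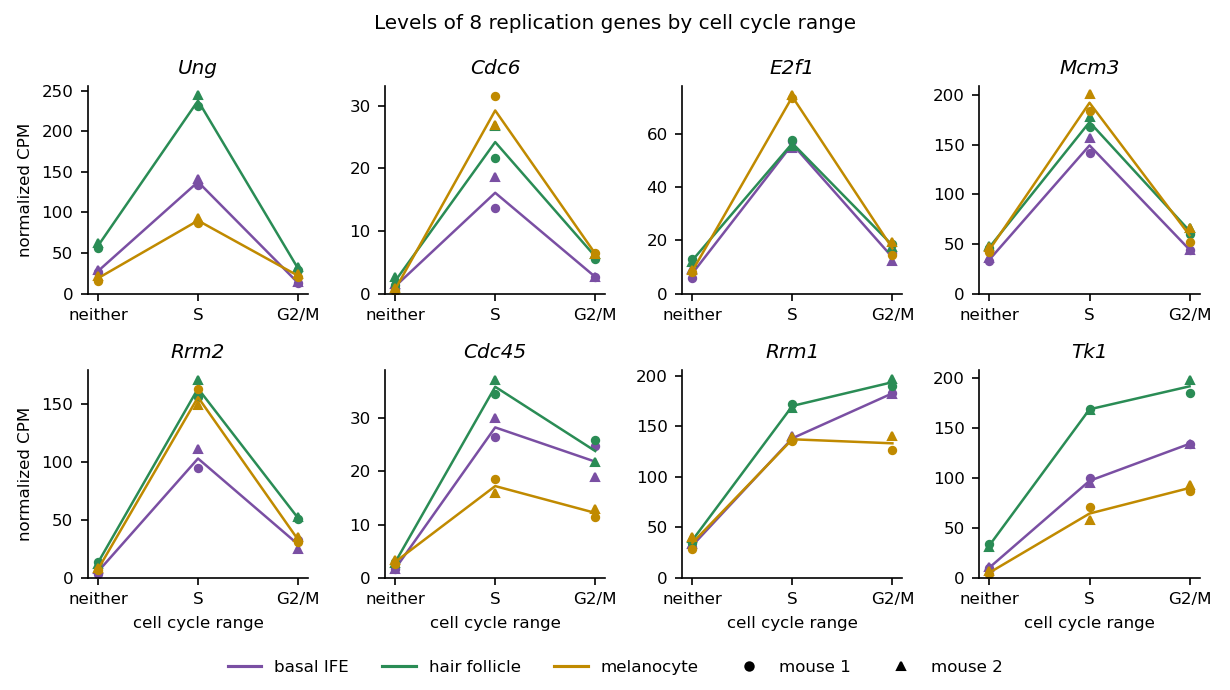
Levels of 8 of the genes in TMM-normalized CPM by cell cycle range, for basal IFE cells, hair follicle cells and melanocytes. Points are the 2 KO mice and lines their mean; Ung, Cdc6, E2f1, Mcm3 and Rrm2 peak in the S range, whereas Rrm1 and Tk1 are at least as high in the G2/M range of basal IFE and follicle cells.

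The genes parted between the S and G2/M ranges. In basal IFE cells, 219 and 386 of the 223 and 392 G2/M range cells were basal proliferating-like. Of the 376 and 804 S range cells, 52 and 132 were, and 179 and 359 were basal aberrant-like. The dividing class held 873 and 1162 of 887 and 1188 G2/M range cells of the follicle, and 501 and 836 of 1132 and 1970 S range cells. The part of class in the differences below was not tested. Between the G2/M range and the S range of basal IFE cells, 28 of the 39 were lower and 2 higher (background 5.19% and 6.91%), with a median of -0.67 against -0.02 over all genes. In hair follicle cells 31 were lower and 0 higher (6.21% and 6.34%, median -0.59), and in melanocytes 27 lower and 1 higher (1.99% and 3.10%, median -0.84). Fewer of the 39 passed without KO mouse 2, and the calls over all genes in those fits are not given. By these calls 24 were lower in all 3 lineages, 10 in 1 or 2 of them, and 5 in none. Of all genes, no more than the 1.99% lower in melanocytes can be lower in all 3. The shares of all genes with the other patterns are not given, so those counts have no background. The lineages came from the same 2 mice. The 24 held all 6 MCM subunits, Cdc6, Cdt1, Gins2, Pcna, Ung, Lig1, Rrm2, Nasp, both Chaf1 subunits, Uhrf1 and E2f1 among others. The 5 were Pola1 of the primase complex, Rpa3, Rrm1, Tyms and Tk1, so that 3 of the 5 nucleotide supply genes were not called lower. A missing call does not show that a gene kept its level. Rpa3 and Pola1 were lower in the G2/M range in both mice of each lineage. In basal IFE cells Rpa3 was at 30.4 and 23.8 CPM against 34.3 and 26.7. Tyms was lower in the follicle (115 and 122 against 130 and 139) but not in the other lineages.

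Ung fell most in basal IFE and follicle cells. It was at 134 and 141 CPM in the S range of basal IFE cells and 12.4 and 13.7 in the G2/M range, under the 26.1 and 29.1 of neither range (-3.38, SE 0.12, edgeR adjusted p = 3.17e-12). In the follicle it was at 231 and 244 CPM against 29.4 and 32.2 (-2.94, SE 0.10, adjusted p = 1.63e-12), and in melanocytes at 87.1 and 92.6 against 20.3 and 23.5 (-2.03, SE 0.16, adjusted p = 1.77e-07). The ranges did not overlap in any lineage. Next in basal IFE cells came Cdc6 (-2.63, SE 0.29, adjusted p = 4.89e-06), E2f1 (-2.07, SE 0.15, adjusted p = 1.97e-08), Rrm2 (-1.87, SE 0.17, adjusted p = 3.79e-07) and Mcm3 (-1.76, SE 0.10, adjusted p = 7.06e-10). In the follicle these were Cdc6 (-2.03, SE 0.18, adjusted p = 2.98e-07), Rrm2 (-1.67, SE 0.14, adjusted p = 1.58e-07), E2f1 (-1.64, SE 0.12, adjusted p = 1.69e-08) and Gins2 (-1.60, SE 0.10, adjusted p = 1.92e-09). In melanocytes they were Rrm2 (-2.22, SE 0.21, adjusted p = 1.49e-06), Cdc6 (-2.18, SE 0.35, adjusted p = 6.52e-04, not passing without KO mouse 2, -2.27), E2f1 (-2.09, SE 0.20, adjusted p = 1.43e-06) and Cdt1 (-2.01, SE 0.24, adjusted p = 2.10e-05).

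Tk1 and Rrm1 went the other way. Tk1 was at 134 and 134 CPM in the G2/M range and 99.3 and 94.6 in the S range of basal IFE cells (0.47, SE 0.10, edgeR adjusted p = 0.00287), and at 86.8 and 92.8 against 70.9 and 57.5 in melanocytes (0.51, SE 0.13, adjusted p = 0.0302). Rrm1 was at 183 and 182 against 136 and 140 in basal IFE cells (0.40, SE 0.10, adjusted p = 0.0101). The samples of the ranges did not overlap, but neither gene passed in basal IFE cells with 1 mouse left out (0.41 and 0.50 for Tk1, 0.41 and 0.37 for Rrm1) or without cells near a cut (0.26 and 0.24), and in melanocytes Tk1 did not pass without KO mouse 2 (0.30), without called doublets (0.55) or without cells near a cut (0.39). In the follicle Tk1 was at 185 and 198 CPM against 169 and 168, and did not pass.

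**Figure D5:**
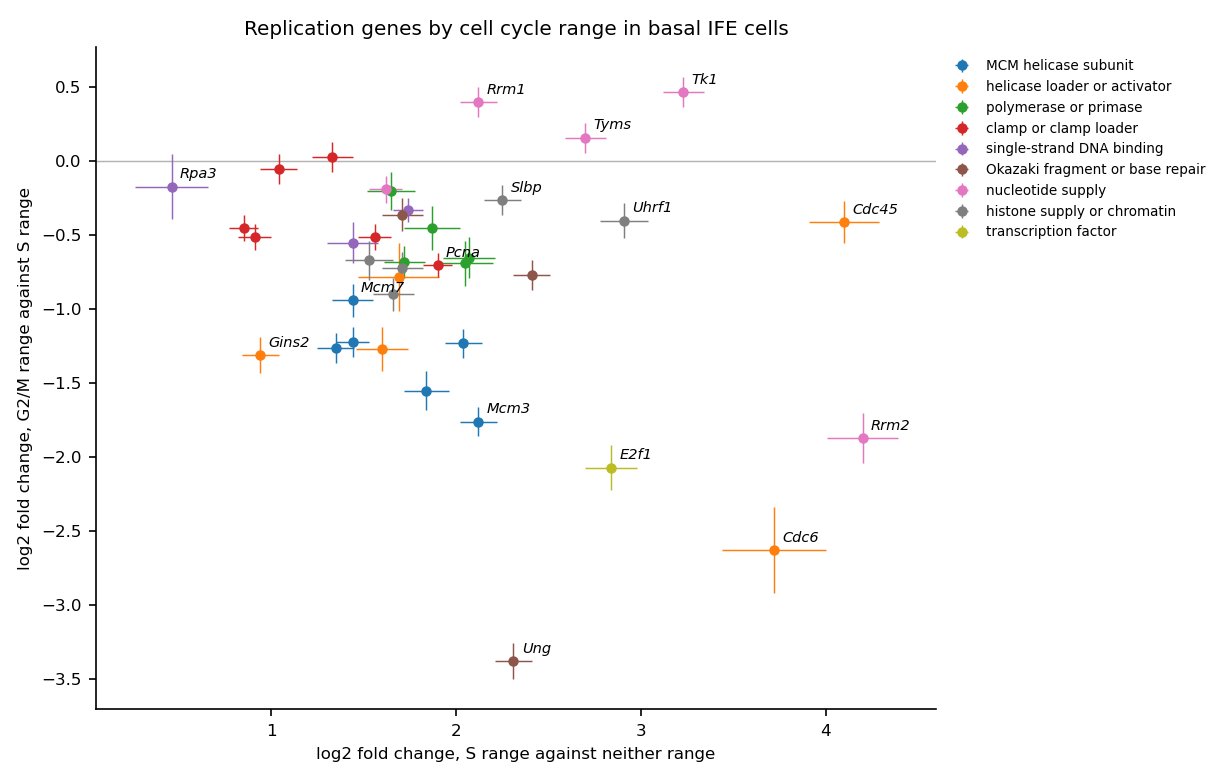
Log2 fold change between the S range and neither range (horizontal) and between the G2/M range and the S range (vertical) of basal IFE cells for each of the 39 genes, with standard errors as bars and colours by role. Ung lies lowest at -3.38, the MCM subunits between -0.94 and -1.76, and Tk1 and Rrm1 above 0.

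The S range change was tested for a difference between lineages by an interaction term. Against basal IFE cells, 1 gene differed in hair follicle cells and 2 in melanocytes (background 1.35% and 0.658% of all genes in either direction). Tk1 rose less in the follicle (a difference of -0.85, SE 0.15, edgeR adjusted p = 0.00799), where it was already at 34.2 and 30.7 CPM in neither range against 9.27 and 11.1 in basal IFE cells. Mcm6 and Mcm7 rose more in melanocytes (0.66, SE 0.14, and 0.78, SE 0.17, both with adjusted p = 0.0463). Mcm7 was at 30.9 and 32.7 CPM in neither range of melanocytes and 44.8 and 48.4 in basal IFE cells, and at 163 and 138 against 128 and 126 in the S range. With the mouse as a block, 4 genes differed in the follicle (all lower) and 7 in melanocytes (4 higher and 3 lower), where 8.17% and 2.36% of all genes did. With 1 mouse left out 0 genes differed by edgeR in either lineage (Tk1 -0.65 and -1.14, Mcm6 0.53 and 0.92, Mcm7 0.69 and 0.94), although 3 (without KO mouse 1) and 7 (without KO mouse 2) of the 39 passed at an unadjusted p under 0.05 in the follicle, and 9 and 9 in melanocytes. In these fits of 1 sum per lineage and range, 4 of all genes were higher and 28 lower in the follicle without KO mouse 1, 0 and 11 without KO mouse 2, and none in melanocytes without either, so that the 0 says little about the 39. By DESeq2 the numbers with both mice were 1 and 2.

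A separate list of 63 other replication genes moved alongside. In basal proliferating-like KCs 51 were higher and 0 lower than in basal 1-like and basal 2-like KCs (median 1.09, background 15.8% and 12.1%). In basal aberrant-like KCs the counts were 49 and 0 (0.94, background 10.1% and 6.77%). They were 0 and 25 in transition-like KCs (-0.55, background 11.7% and 11.4%) and 9 and 35 in differentiated-like KCs (-0.52, background 26.2% and 25.6%). The 9 higher genes were thus a smaller share than that of all genes. Those higher in differentiated-like KCs included E2f2 (2.54, SE 0.40, edgeR adjusted p = 5.26e-06), an activating E2F factor, and Rb1 (1.26, SE 0.14, adjusted p = 2.66e-08), the retinoblastoma protein that binds E2F factors. Of 52 that entered neither cell cycle score, 8 were higher and 15 lower in the G2/M range than in the S range of basal IFE cells (background 6.91% and 5.19%). Dbf4, the activator of the Cdc7 kinase, was at 1.85 (SE 0.13, edgeR adjusted p = 9.79e-09) and Orc1, the largest origin recognition subunit, at -1.44 (SE 0.24, adjusted p = 4.53e-04).

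Over the 30 sums of class and mouse, the genes outside the 39 whose log2 CPM followed the summed level most closely, of 5943 compared, included Tipin (Pearson r = 0.977), Apitd1 (0.976), Dnajc9 (0.965), Gmnn (0.961), Psmc3ip (0.952), Lmnb1 (0.942), Syce2 (0.939), Timeless (0.937) and Cenpk (0.936). Tipin, Gmnn and Timeless are among the 63 other replication genes. The summed level was here taken from the TMM-scaled levels. Sums of the same mouse share a library and the sums differ in depth, so the values describe these 30 sums only.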

How the data were processed

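Epidermal cells of 2 Chrm3 KO mice were measured by droplet single-cell RNA sequencing. The authors aligned reads and counted UMIs with Cell Ranger 3.0.2 on mm10, and the deposited matrices hold raw UMI counts per gene and barcode. The labels name 10x 3′ version 1 chemistry and the study's methods version 3.1, and the files do not settle which was used. The genes, lists and tests were chosen with earlier results of these data known.

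The filter kept barcodes with at least 900 and at most 7700 genes and a mitochondrial share below 10%. Of the barcodes, 127 occurred in both libraries before this filter. Mice were integrated and clustered in Seurat 5.3.0 (R 4.3.3) on 2000 variable genes less the replication genes, with 30 dimensions and resolution 0.8, giving 24 clusters, and IFE cells were clustered again into 13. Doublets were scored with Scrublet (scanpy 1.11.5). Its automatic threshold failed in KO mouse 1, so a score over 0.2 was used, which called 194 and 513 cells. These were kept, and leaving them out was an alternative. Raw UMI counts were summed per mouse and class, or per mouse, lineage and cell cycle range, and tested with edgeR 4.0.16 by its quasi-likelihood test, with TMM scaling, the filterByExpr filter and p-values adjusted by Benjamini-Hochberg over every gene tested at 0.05. The class fit held 13780 genes in 30 sums and the range fit 12615 genes in 18 sums, and all 39 genes passed the low-count filter in both. Each mouse gave 1 library, and the main fits had no mouse term. Their p-values rest on a spread between 2 mice that was pooled over all sums of a fit. This left 15 residual degrees of freedom in the class fit and 9 in the range fit, although the sums share 2 libraries. The p-values do not measure the spread of a single class between mice. Total depth was 109756784 and 166441732 UMIs, and intervals and counts cover counting error only. Before the scores were compared at equal depth, cells were thinned to 3000 UMIs, and 85 and 220 shallower cells were left out.

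For each comparison the genes named with their error and adjusted p were those called and moving the same way in both mice, up to the 5 greatest rises and 5 greatest falls. The mouse number pairs the sums, since it names the animal. Their mouse differences over 5974 genes correlated between classes at -0.0101 to 0.76 (median 0.228), and a fit with the mouse as a block was an alternative. Other alternatives were each mouse left out, DESeq2 1.42.0 and its size factors, no low-count filter, doublets removed, other clusterings, a 5% mitochondrial limit, cells near a range cut left out and thinning. On simulated counts with 200 genes changed by 2 on the log2 scale, 58.6% (T cell-like cells, 13595 genes) to 94.0% (S range of the follicle, 12470 genes) of the changed genes were recovered. Reads of a gene and of a near-identical copy, such as Pcna and Pcna-ps2, may not be told apart. 1 gene that the rule on likeness names is not reported here. Figures were drawn with matplotlib 3.10.9.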

Additional observations from a re-analysis of the deposited data

Results flagged for a closer look

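The S range change differed between lineages by the interaction test for 3 genes. The difference was -0.85 for Tk1 between hair follicle and basal IFE cells, and 0.66 for Mcm6 and 0.78 for Mcm7 between melanocytes and basal IFE cells. Of all genes, 1.35% and 0.658% differed in these tests, so that 1 of 39 in the follicle is near the background. None of the 3 passed with either mouse left out (1 sum per lineage and range), and after thinning Mcm6 (0.48) and Mcm7 (0.43) did not pass.

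The 39 genes were also counted in barcodes outside the 15 classes, above what a count of 0 allows. Their summed level was 1738 ± 123 CPM (SD, n = 2 mice) in cells of unnamed clusters, 1710 ± 2.22 in unnamed dividing cells, 1633 ± 259 in Merkel cell-like cells (19 and 20 cells) and 1835 ± 7.53 in the barcodes that the filter removed, against 2514 ± 140 in all cells kept.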

How the results depend on the processing

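Of the alternative counts of genes that passed, 166 stayed within 1.5 times of the reported count and 27 did not. With 1 mouse left out, the number of the 39 genes that passed was 33 to 33 in basal proliferating-like and 37 to 37 in basal aberrant-like KCs, 12 to 23 between basal 2-like and basal 1-like, 20 to 23 in transition-like, 25 to 32 in differentiated-like and 25 to 26 in terminally differentiated-like KCs. It was 37 to 37 in hair follicle-like, 3 to 6 in hair follicle-like dividing, 21 to 27 in melanocyte-like, 12 to 16 in Langerhans cell-like and 14 to 29 in T cell-like cells. For the S range it was 38 to 38 in basal IFE cells, 38 to 39 in the follicle and 36 to 37 in melanocytes, for the G2/M range 16 to 23, 18 to 21 and 15 to 20, and for both interactions 0 to 0. With the mouse as a block it was 25 in hair follicle-like dividing cells and 4 and 7 for the interactions, and the block moved no other count by over 1.5 times. At resolution 1.2 it was 6 for basal 2-like against basal 1-like KCs and 36 for hair follicle-like dividing cells, without integration 19 and 6, and with cell cycle genes left out of the clustering 32 for the latter. With under 5% mitochondrial UMIs it was 24 (basal aberrant-like), 0 (basal 2-like), 12 (transition-like), 23 (hair follicle-like dividing) and 8 (Langerhans cell-like). The follicle interaction gave 2 without the low-count filter and the melanocyte interaction 0 after thinning. The cause of these moves was not tested. Where calls over all genes are not given beside a count, it cannot be set against a background.

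Without doublets the summed level was 589 in Langerhans cell-like and 2158 in melanocyte-like cells. Without Nasp, the gene with the most UMIs, it was 939 in basal 2-like, 3050 in basal aberrant-like, 3000 in basal proliferating-like, 613 in transition-like, 448 in differentiated-like, 3048 in hair follicle-like, 3709 in hair follicle-like dividing and 2041 in melanocyte-like cells. Thinned, the S range share was 24% (T cell-like), 7.63% (basal 2-like), 42.3% (basal aberrant-like), 3.08% (dermal-like), 40.9% (hair follicle-like), 33.0% (hair follicle-like dividing), 15.9% (melanocyte-like), 4.50% (sebaceous-like) and 5.82% (transition-like), and the G2/M share of melanocyte-like cells 14.5%. Without doublets the S range share was 2.77% (Langerhans cell-like), 33.5% (T cell-like), 2.31% (dermal-like) and 2.04% (sebaceous-like), and the G2/M share of melanocyte-like cells 14.1%. Of 995 alternative values of named genes, 939 kept their direction and side of the threshold, 55 lost the call and 1 reversed, that of Rrm2 in transition-like KCs at resolution 1.2 (0.04). With 2 mice, small classes such as T cell-like and terminally differentiated-like cells limit what could be called.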
